A study of Mus musculus with 10 samples.

Results

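The transcripts of 10 transcription factors of the B lineage, Pax5 itself left aside, were followed in J558, a myeloma of the mouse with the character of a plasma cell, after a Pax5 protein had been put back into it. The genes are Irf8, Spib, Ikzf3, Bach2, Ebf1, Bcl6, Pou2f2, Pou2af1, Ets1 and Foxo1, taken by name. Each had 1 probe set with a single gene symbol on the Affymetrix whole-transcript array, so 10 of the 19937 genes measured are described. The arrays form 3 groups: 4 of cells with Pax5 G183S, a mutant with serine in place of a glycine in its octapeptide motif, 3 of cells with Pax5 WT and 3 of cells with the empty vector. All 10 cultures carried the same retroviral backbone, MSCV-PIG, with puromycin resistance and, behind an internal ribosome entry site, green fluorescent protein. Selection with puromycin lasted 5 to 7 days, and sorting on green fluorescence and IgM followed. Whether cells with or without IgM were kept is not given in the sources used. Any effect of that gate on the groups was not tested. Selected and sorted cells of 1 line are thus the only setting examined, and Pax5 came from a retroviral promoter and not from its own gene. The labels describe the cultures as independent biological replicates, 3 or 4 a group, and this number limits the precision of every value.

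These factors act in sequence in B-cell development and against one another at its end. Ebf1, Foxo1, the E proteins and the Ikaros family set up the early B-cell programme with Pax5, and Irf8, Spib, Pou2f2 (Oct-2), its coactivator Pou2af1 (OBF-1), Ets1, Bach2 and Bcl6 serve mature and germinal-centre B cells. In plasma cells Prdm1 (Blimp-1), Irf4 and Xbp1 take over, Pax5 is shut off, and Bach2, Bcl6 and Ets1, which hold Prdm1 back or oppose it, normally decline. Irf8 is known as a gene activated by Pax5 in B cells, which makes the set a readout of how far a plasma-cell line takes up B-lineage regulators again.

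Promoter sequences are shown for Irf8, the only one of the 10 whose change passed the test, and for Pou2f2 and Bach2, whose promoters hold the composite site at which a Spi1 or Spib protein pairs with Irf8 or Irf4. They are RefSeq windows of the GRCm38.p6 assembly, 250 bases before to 50 after the gene's start, and 8 of the 10 genes had an entry. Capitals mark matches, on either strand, to a set of 9 short motifs. The Irf8 window shown, 1 of 2 in the table, lies at chr8:120736108-120736407 on the plus strand, that of Pou2f2 at chr7:25132411-25132710 on the minus strand and that of Bach2 at chr4:32417185-32417484 on the plus strand.
Irf8: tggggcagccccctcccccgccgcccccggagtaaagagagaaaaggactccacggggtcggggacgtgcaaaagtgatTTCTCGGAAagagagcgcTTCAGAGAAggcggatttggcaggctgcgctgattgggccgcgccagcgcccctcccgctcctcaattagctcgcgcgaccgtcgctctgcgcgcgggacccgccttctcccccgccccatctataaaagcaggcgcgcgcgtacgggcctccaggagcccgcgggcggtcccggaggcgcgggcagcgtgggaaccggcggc
Pou2f2: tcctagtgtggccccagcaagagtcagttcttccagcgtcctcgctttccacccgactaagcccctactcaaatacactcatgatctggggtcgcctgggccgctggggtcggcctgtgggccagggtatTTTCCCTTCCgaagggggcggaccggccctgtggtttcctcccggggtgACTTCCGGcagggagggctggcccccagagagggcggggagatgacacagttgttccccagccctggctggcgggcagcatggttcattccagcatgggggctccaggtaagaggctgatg
Bach2: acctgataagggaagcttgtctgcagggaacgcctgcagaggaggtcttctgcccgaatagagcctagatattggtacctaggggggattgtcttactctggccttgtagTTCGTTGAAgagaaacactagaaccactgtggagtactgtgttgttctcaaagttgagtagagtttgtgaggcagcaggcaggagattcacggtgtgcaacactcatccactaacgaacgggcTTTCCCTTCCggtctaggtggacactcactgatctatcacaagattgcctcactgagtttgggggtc
In the Irf8 window shown the capitals are 2 matches to TTCNNNGAA, the GAS element of STAT factors, which Bcl6 can also bind, starting 171 and 153 bases before the start, and the other Irf8 window held no match to any motif. Of 32851 windows of the same length 8.30% held that motif, and those of Bach2 and Bcl6 held it too. The composite motif, GGAA and GAAA with any 2 bases between them, lay 120 bases before the start in Pou2f2 and 17 before it in Bach2, and 1 Bcl6 window also held it, against 2.72% of all windows. The Pou2f2 window also held the ETS motif CCGGAAGT (3.89% of windows), the Foxo1 window the palindrome of Ebf factors, TCCC and GGGA with any 2 bases between (0.904%), and 1 Ebf1 window the doubled GAAA of interferon regulatory factors, also 2 bases apart (3.44%). The core GCGTGAC of Pax5 sites (2.09%), the octamer ATGCAAAT of Pou2f2 (1.74%), the FOXO motif GTAAACA (3.65%) and the E-box CAGCTG (16.3%) were in none of the 11 windows of the 8 genes. A match is a description of letters and says nothing about binding in these cells.

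Values are log2 expression, so a difference of 1 is a doubling on the array's scale. The median probe set read 6.81 to 6.94 across arrays. Pax5 transcript read 9.38 to 10.36 in the 4 G183S arrays and 10.05 to 10.67 in the 3 WT arrays, against 6.84 to 7.10 with empty vector. Of 10 plasma-cell marker genes Jchain read 12.01 to 13.14 over all arrays and Sdc1 9.73 to 11.51, whereas the probe set of Igha, the IgA heavy chain gene, read 6.61 to 7.61 and straddled 7.23, the median gene's mean level, used here as the bound of dim genes. Whether that probe set reads the heavy chain this line expresses could not be checked. The mean level of the plasma-cell list was 10.60 to 11.35 in G183S, 11.07 to 11.42 in WT and 11.35 to 11.46 in empty-vector arrays, and none of these 10 genes passed the test in any comparison. Sdc1, Tnfrsf17 (BCMA) and Tnfrsf13b (TACI) lay under empty vector in every G183S array (log2 differences -1.14, -2.08 and -0.59; limma adjusted p = 0.119, 0.119 and 0.123), and Sdc1 and Tnfrsf13b in every WT array too (-0.64 and -0.48; limma adjusted p = 0.339 and 0.160). The part of such a shift in the results that follow was not tested. Among markers of cells that also use Irf8 or Spib, 0 of 8 myeloid and 0 of 5 plasmacytoid dendritic cell genes passed in any comparison. The mean level of the myeloid list was 5.54 to 6.04 in G183S, 5.55 to 5.75 in WT and 5.75 to 5.90 in empty-vector arrays, and that of the dendritic list 7.61 to 7.75, 7.48 to 7.66 and 7.63 to 7.65 in the same order. Of 7 T-cell genes Cd3g fell with both proteins (list mean 5.995 to 6.22 in G183S, 6.06 to 6.21 in WT and 6.35 to 6.63 in empty-vector arrays), and of 3 erythroid genes none passed (6.47 to 6.64, 6.50 to 6.68 and 6.60 to 6.71). In these bulk samples a change in the share of expressing cells and a change in transcript per cell cannot be told apart.

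Irf8 rose with both proteins. This interferon regulatory factor, which pairs with Spi1 or Spib on composite sites in B cells, read 10.31, 9.99, 9.05 and 9.91 log2 units in the G183S arrays and 10.53, 10.08 and 10.17 in the WT arrays, against 7.92, 8.07 and 7.91 with empty vector. Every array of cells with a Pax5 vector lay above every empty-vector array, and G183S replicate 3, which also had the least Pax5 transcript of the 7, was the lowest of them. Its transcript was higher with G183S than with empty vector by a log2 difference of 1.85 ± 0.25 (SE, limma adjusted p = 0.0171), a ratio of 3.60 with a 95% interval of 2.45 to 5.29. It was higher with WT than with empty vector by 2.29 ± 0.27 (SE, limma adjusted p = 0.00767), a ratio of 4.90 (95% interval 3.25 to 7.39). By size of increase Irf8 ranked 22 of 19937 genes with G183S and 20 with WT. The G183S call was lost without empty-vector replicate 2 (limma adjusted p = 0.106) or 3 (0.140), without G183S replicate 2 (0.0697) or 4 (0.0682) and with the replicate number as a block (0.0930), while the log2 difference stayed between 1.68 and 2.10. The WT call was lost without empty-vector replicate 3 (limma adjusted p = 0.0572), with the log2 difference between 2.16 and 2.38 whichever array was left out, and neither comparison passed without moderation of the variances (0.121 for G183S and 0.0658 for WT).

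**Figure D1:**
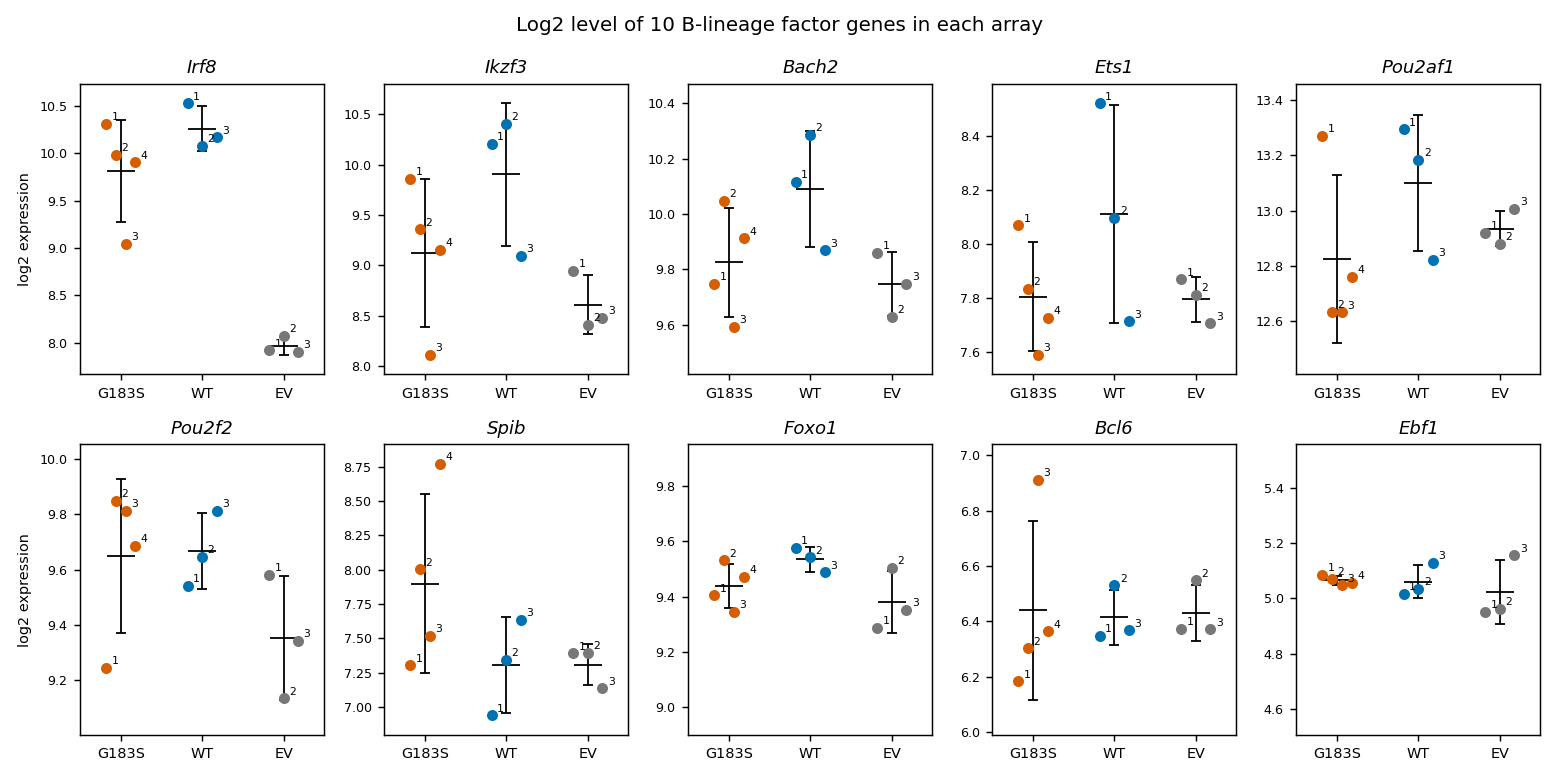
Log2 expression (y axis, each panel on its own range of at least 1 log2 unit) of the 10 genes in the 4 G183S, 3 WT and 3 empty-vector (EV) arrays; points are arrays with their replicate number, and bars are the mean ± SD. Irf8 is the one panel in which all Pax5 arrays, at 9.05 to 10.53, stand clear of the empty-vector arrays at 7.91 to 8.07.

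The genes whose levels followed Irf8 most closely over the 10 arrays, among 1856 that spanned at least 1 log2 unit, were Snx2, a sorting nexin of the retromer (Pearson r 0.993), Sesn3, a sestrin and a known FoxO target (0.989), and the scavenger receptor gene Cd36 (0.981). Pax5 stood sixth in that order (rank 6, 0.978). Each r spans the offset between groups and comes from the same arrays, and it is given only as the measure of likeness. Sesn3 read 9.55, 9.19, 8.32 and 9.11 log2 units in the G183S arrays and 9.82, 9.25 and 9.08 in the WT arrays, against 7.55, 7.71 and 7.62 with empty vector. G183S replicate 3 was the lowest and WT replicate 1 the highest of the arrays with a Pax5 vector, an order shared with Irf8 that follows from how Sesn3 was picked. Sesn3 rose with WT (log2 difference 1.76 ± 0.28 SE, limma adjusted p = 0.0216), while with G183S its difference of 1.42 ± 0.26 did not pass (limma adjusted p = 0.0636). Snx2 likewise passed with WT (1.21 ± 0.17, limma adjusted p = 0.0159) and not with G183S (0.90 ± 0.16, limma adjusted p = 0.0592), and the difference between the proteins did not pass for either gene (limma adjusted p = 0.670 for Sesn3 and 0.555 for Snx2).

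Irf8 was the only one of the 10 genes called in either comparison with empty vector, at a limma adjusted p under 0.05 over all genes. That is 1 of 10 with G183S, where 0.311% of all genes were called (0.100% higher, 0.211% lower), and 1 of 10 with WT, where 1.88% were (0.883% higher, 0.993% lower). An unadjusted p under 0.05 was found for 1 of the 10 with G183S, against 11.3% of all genes, and for 3 of the 10 with WT, against 15.9%. The median log2 difference of the 10 genes was 0.07 with G183S (all genes -0.0033) and 0.24 with WT (all genes 0.01). With WT 3 of the 10 (Irf8, Ikzf3 and Bach2) had groups that did not overlap, all with WT above empty vector, where 24.0% of all genes did not overlap, 11.5% with WT above and 12.5% with WT below. With G183S this held for Irf8 alone, where 11.6% of all genes did not overlap, 5.02% with G183S above and 6.56% with it below. The comparisons with empty vector share its 3 arrays. The 10 genes were chosen with earlier results of these data known, so these shares are no test of the set.

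**Figure D2:**
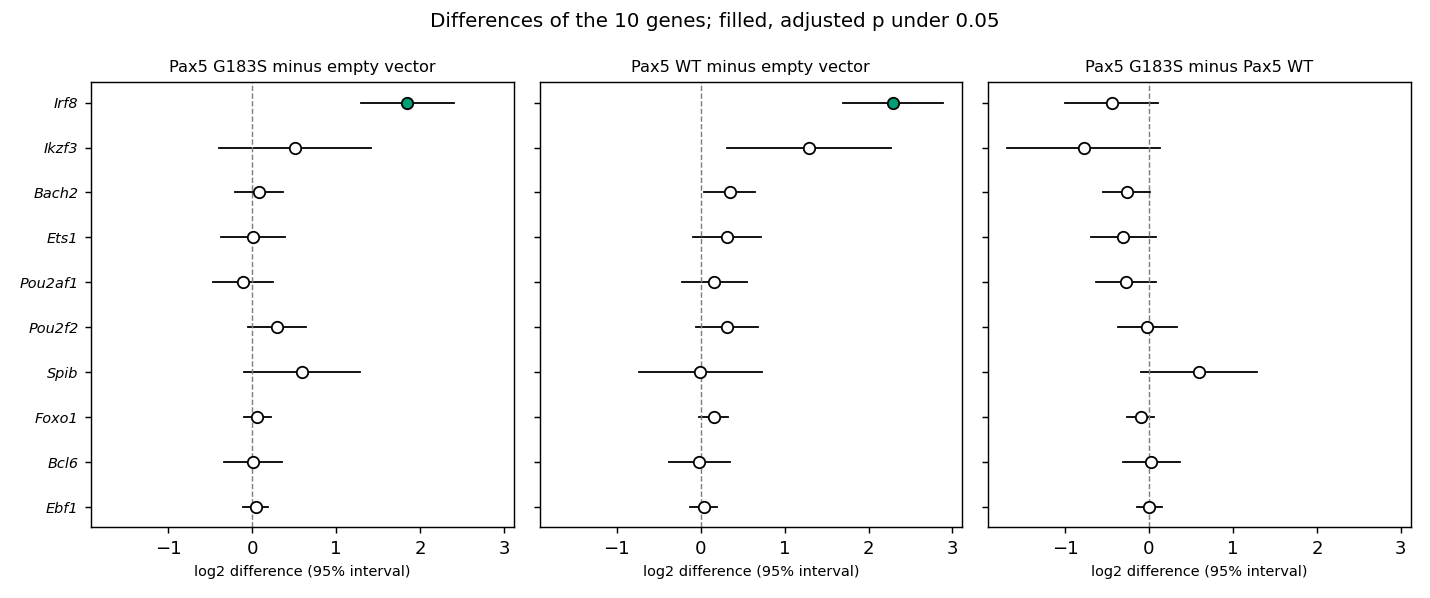
Log2 difference (x axis, the same scale in each panel) of each gene between G183S and empty vector, WT and empty vector, and G183S and WT; points are limma estimates, lines their 95% intervals, and filled points have an adjusted p under 0.05. Irf8 is filled against empty vector for both proteins (1.85 with G183S, 2.29 with WT), and no point is filled between the proteins.

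The Ikaros-family factor Ikzf3 (Aiolos), which restrains pre-B-cell receptor genes and B-cell activation, was high in some Pax5 cultures only. It read 9.86, 9.36, 8.12 and 9.15 log2 units in the G183S arrays and 10.21, 10.40 and 9.09 in the WT arrays, against 8.94, 8.41 and 8.48 with empty vector. WT arrays all lay above empty vector, although WT replicate 3 was close to empty-vector replicate 1, and G183S arrays overlapped it, with replicate 3 the lowest of all 10 arrays. The log2 difference from empty vector was 0.51 ± 0.41 with G183S (SE, limma adjusted p = 0.753; 95% interval -0.40 to 1.42) and 1.29 ± 0.44 with WT (limma adjusted p = 0.177; 95% interval 0.32 to 2.26). With WT it passed only when arrays were weighted by quality (1.67, limma adjusted p = 0.0065). Its relative Ikzf1 (Ikaros) differed by -0.21 with G183S and 0.23 with WT (limma adjusted p = 0.672 and 0.505).

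Bach2, the repressor that delays plasma-cell differentiation by holding down Prdm1, read 9.75, 10.05, 9.59 and 9.91 log2 units in the G183S arrays and 10.12, 10.29 and 9.87 in the WT arrays, against 9.86, 9.63 and 9.75 with empty vector. The WT arrays lay above the empty-vector arrays, the nearest pair being almost level, and G183S replicates 1 and 3 lay inside or under the empty-vector range. Neither difference passed (0.08 ± 0.13 with G183S, limma adjusted p = 0.909; 0.34 ± 0.14 with WT, limma adjusted p = 0.250, and 0.0185 with array weights). Bach2 was thus read well above the dim bound in empty-vector cells, whose plasma-cell factors Prdm1 (10.40 to 10.51) and Irf4 (11.77 to 12.02) were read well above it too. The only listed target repressed by Bach2 apart from Prdm1, the haem oxygenase gene Hmox1, did not pass (0.28 with G183S, -0.21 with WT; limma adjusted p = 0.616 and 0.6254).

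Ets1 and Pou2af1 shared their highest 3 arrays and their lowest array with Ikzf3. Ets1, which restrains plasma-cell differentiation, read 8.07, 7.83, 7.59 and 7.73 log2 units in the G183S arrays and 8.52, 8.10 and 7.71 in the WT arrays, against 7.87, 7.81 and 7.71 with empty vector. Pou2af1, the B-cell coactivator of octamer-binding factors, read 13.27, 12.64, 12.63 and 12.76 in the G183S arrays and 13.29, 13.18 and 12.82 in the WT arrays, against 12.92, 12.88 and 13.01 with empty vector. In Ikzf3, Ets1 and Pou2af1 alike, WT replicates 1 and 2 and G183S replicate 1 held the 3 highest values of the 10 arrays. G183S replicate 3 held the lowest. This was not particular to them: the plasma-cell factors Irf4 and Prdm1 had the same 3 highest arrays and the same lowest array. Over all genes G183S replicate 1 correlated more closely with WT replicates 2 and 1 (Pearson r 0.995 and 0.994) than with its own group (0.985 to 0.988). Groups overlapped for both genes, and their log2 differences of 0.01 ± 0.17 (Ets1) and -0.11 ± 0.16 (Pou2af1) with G183S and of 0.31 ± 0.18 (Ets1) and 0.16 ± 0.17 (Pou2af1) with WT did not pass (limma adjusted p = 0.994, 0.899, 0.452 and 0.706 in that order). Over all 10 genes WT replicates 1 and 2 each stood among the 3 highest arrays for 6 genes and G183S replicate 1 for 5. G183S replicate 3 was the lowest G183S array for 7. The share of all genes with such an order was not counted, so these counts are not read as a result about the 10.

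**Figure D3:**
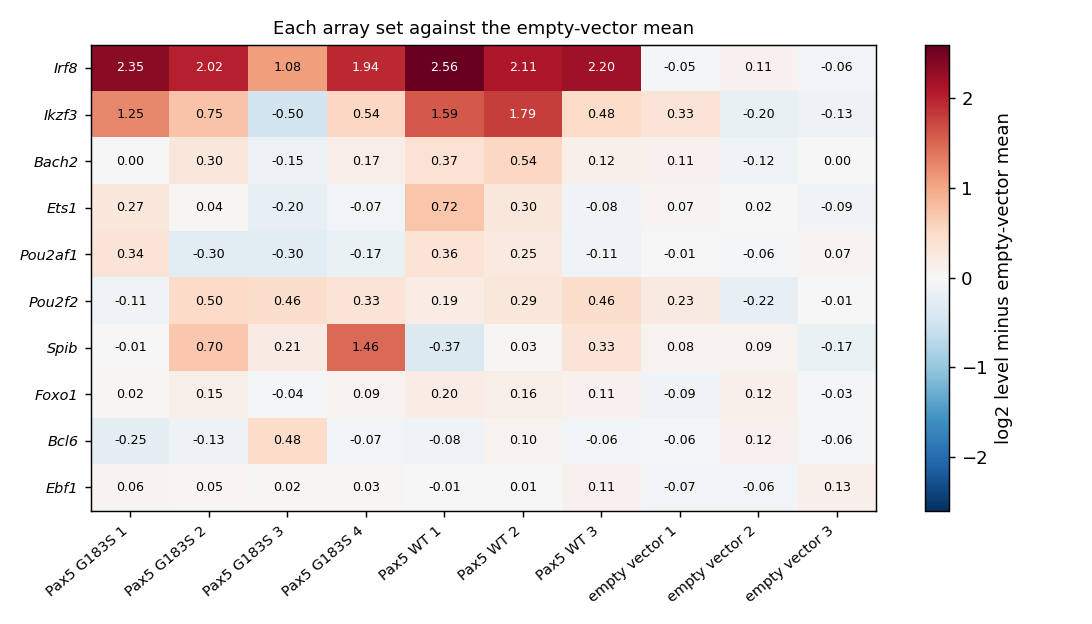
Log2 level of each gene (rows) in each array (columns: 4 G183S, 3 WT, 3 empty vector) minus the gene's empty-vector mean, shown as colour and as the printed number. Irf8 is raised in all 7 Pax5 columns (1.08 to 2.56), whereas Ikzf3 ranges from -0.50 in G183S replicate 3 to 1.79 in WT replicate 2.

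Spib, an Ets-family factor close to Spi1 that B cells and plasmacytoid dendritic cells use, was the one gene of the 10 with a G183S mean more than 0.5 log2 units above the WT mean. It read 7.30, 8.004, 7.52 and 8.77 log2 units in the G183S arrays and 6.94, 7.34 and 7.64 in the WT arrays, against 7.39, 7.40 and 7.14 with empty vector. G183S replicate 4 was the highest of the 10 arrays and replicate 2 the next, while replicate 1 lay within the empty-vector range. The difference from empty vector was 0.59 ± 0.31 log2 units with G183S (SE, limma adjusted p = 0.535) and -0.0024 ± 0.33 with WT (limma adjusted p = 0.998). Without G183S replicate 4 the G183S difference was 0.30 log2 units. Its relative Spi1 (PU.1) read 11.17 to 11.40 over the 10 arrays, with differences of 0.07 with G183S and 0.03 with WT.

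Pou2f2, the octamer-binding factor Oct-2, read 9.24, 9.85, 9.81 and 9.69 log2 units in the G183S arrays and 9.54, 9.65 and 9.81 in the WT arrays, against 9.58, 9.13 and 9.34 with empty vector. In both Pax5 groups all but 1 array lay above the highest empty-vector array. The differences were close to each other, 0.30 ± 0.16 with G183S and 0.31 ± 0.17 with WT (SE), and neither passed (limma adjusted p = 0.539 and 0.398). Foxo1, a forkhead factor that drives recombination and receptor genes in B-cell precursors, read 9.35 to 9.53 in the G183S arrays and 9.49 to 9.58 in the WT arrays, against 9.29 to 9.50 with empty vector. Its log2 differences of 0.06 ± 0.07 with G183S (95% interval -0.10 to 0.22) and 0.16 ± 0.08 with WT (95% interval -0.02 to 0.33) did not pass (limma adjusted p = 0.873 and 0.366).

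Ebf1 and Bcl6 stayed dim in every array. Ebf1, the factor that with Pax5 specifies the B lineage, read 5.05 to 5.08 log2 units in the G183S arrays, 5.02 to 5.13 in the WT arrays and 4.95 to 5.16 in the empty-vector arrays. Bcl6, the repressor that sustains germinal-centre B cells, read 6.18 to 6.91 in the G183S arrays, 6.35 to 6.53 in the WT arrays and 6.37 to 6.55 with empty vector, its highest value being G183S replicate 3. All these values lie under the dim bound of 7.23, and detection calls were not used here, so a change in a transcript this low may not be detectable. The intervals for Ebf1 ran from -0.11 to 0.19 log2 units with G183S and from -0.12 to 0.20 with WT, and those for Bcl6 from -0.33 to 0.35 and from -0.38 to 0.35.

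Direct comparison of G183S with WT called none of the 10 genes in limma, nor any gene of the whole table (0% called). None of the 10 had an unadjusted p under 0.05, where 9.48% of all genes did, and none had groups that did not overlap, where 6.50% of all genes did (2.33% with G183S above, 4.17% with it below). This depended on 1 array: without G183S replicate 1 the fit called 1113 genes, though none of the 10. Then 5 of the 10 had an unadjusted limma p under 0.05, where 4427 of all 19937 genes did. Without WT replicate 3 it was 4 of the 10, where 2798 of all 19937 genes did. Leaving out any array but G183S replicate 1 called at most 3 genes. The model without moderation also called 0 of the 10. With array weights, which called 2752 genes in all, it was 3 of the 10: Ikzf3 and Pou2af1 lower and Spib higher in G183S (log2 differences -1.08, -0.42 and 0.81; limma adjusted p = 0.0370, 0.0287 and 0.0492). In the unweighted fit G183S means were lower than WT means for 7 genes and higher for 3, with a median difference of -0.18 log2 units (all genes -0.02). Ikzf3 differed by -0.78 (95% interval -1.69 to 0.13), Irf8 by -0.45 (-1.001 to 0.11), Ets1 by -0.30 (-0.69 to 0.08), Pou2af1 by -0.27 (-0.64 to 0.09), Bach2 by -0.27 (-0.55 to 0.02) and Spib by 0.59 (-0.09 to 1.28). Limma adjusted p lay at 0.539 for Bach2 and higher for the other 9, up to 0.985 for Ebf1. These intervals leave room for differences of either direction, and they do not show that the proteins act alike on these genes.

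Of 6 factors of the plasma-cell programme none passed in any comparison. Irf4 read 12.59, 11.88, 11.34 and 11.62 log2 units in the G183S arrays and 12.59, 12.54 and 12.20 in the WT arrays, against 11.80, 11.77 and 12.02 with empty vector, so the WT arrays all lay above empty vector and the G183S arrays on both sides of it. Prdm1 was at 11.14, 10.16, 9.96 and 10.13 with G183S and at 11.12, 10.83 and 10.49 with WT, against 10.46, 10.40 and 10.51 with empty vector. G183S replicate 1 alone of its group lay above empty vector. Xbp1, the factor of the secretory programme, differed by -0.33 with G183S and -0.23 with WT (limma adjusted p = 0.417 and 0.506).

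Among 23 measured relatives of the 10 genes by family, 1 fell and none rose with WT, where 0.993% of all genes were called lower, and none passed with G183S, where 0.311% were called. That 1 of 23 is not read as a result about the relatives as a group. The one that fell was Ebf3, a relative of Ebf1 known mostly from neural and stromal tissue. It read 7.69, 7.24, 7.27 and 7.59 log2 units in the G183S arrays and 7.19, 7.30 and 7.46 in the WT arrays, against 8.06, 8.04 and 8.21 with empty vector, so both Pax5 groups lay wholly under the empty-vector arrays. The log2 difference was -0.66 ± 0.12 with G183S (SE, limma adjusted p = 0.0615) and -0.79 ± 0.13 with WT (limma adjusted p = 0.0225). The WT call held in 5 of the 10 fits that each left out 1 array and failed without any of the 3 empty-vector arrays or without WT replicate 1 or 2, where limma adjusted p for Ebf3 reached 0.110. The Ebf3 call with WT was also lost with the replicate block (limma adjusted p = 0.0536) and without moderation (0.0912). Of the interferon regulatory factors other than Irf8, none passed. Irf7 differed by -0.93 with G183S and -0.50 with WT (limma adjusted p = 0.105 and 0.339), Irf1 by -0.52 and -1.13 (limma adjusted p = 0.601 and 0.116), Irf9 by -0.39 and -0.90 (0.692 and 0.150) and Irf2 by -0.14 and -0.36 (0.685 and 0.119). Foxo3 differed by -0.25 with G183S and -0.43 with WT (limma adjusted p = 0.423 and 0.0995). The median of the 23 was -0.04 log2 units with G183S and -0.03 with WT, beside -0.0033 and 0.01 over all genes.

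**Figure D4:**
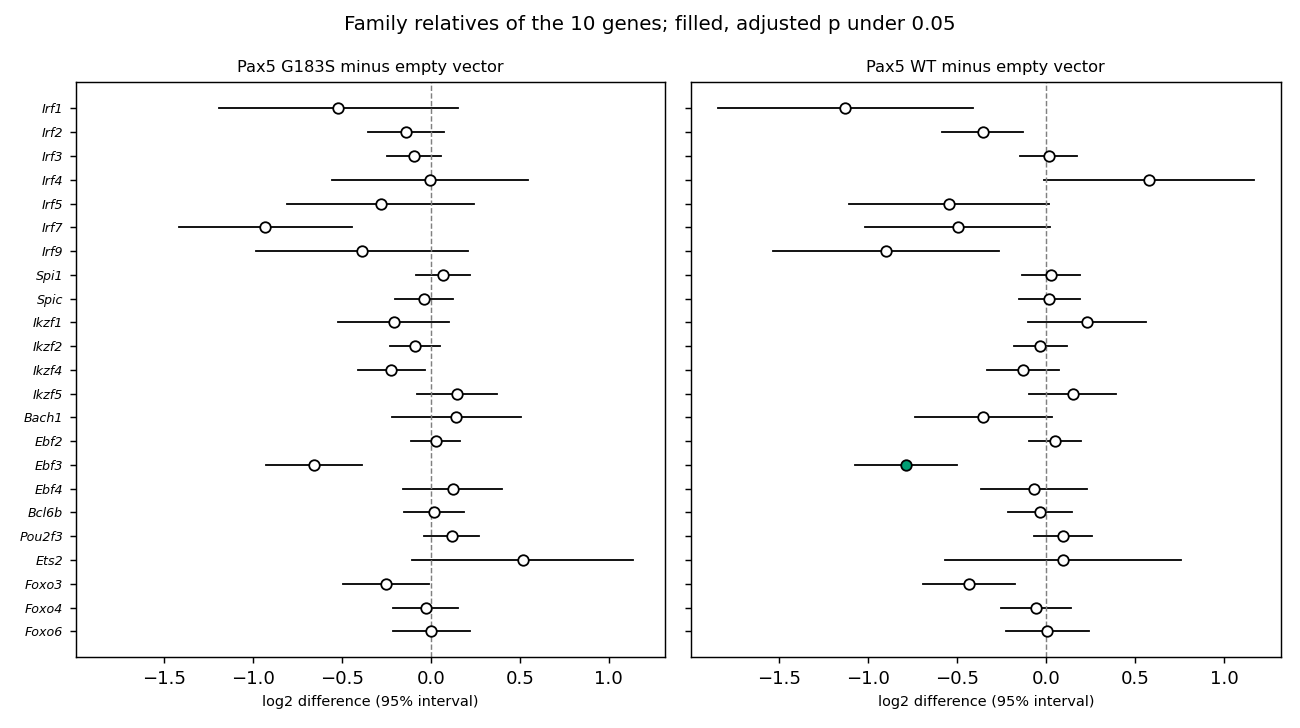
Log2 difference from empty vector (x axis) of 23 family relatives, with G183S on the left and WT on the right; points are limma estimates, lines their 95% intervals, and filled points have an adjusted p under 0.05. Ebf3 with WT (-0.79) is the one filled point, while Irf1, Irf7 and Irf9 lie left of 0 in both panels.

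Of 30 further factors of the B lineage that were measured, 1 rose and none fell with WT, where 0.883% of all genes were called higher, and none passed with G183S, where 0.311% were called. Rel, the c-Rel subunit of NF-kB, read 11.60 to 11.82 log2 units in the G183S arrays and 11.60 to 12.06 in the WT arrays, against 11.22 to 11.43 with empty vector. Its log2 difference was 0.40 ± 0.11 with G183S (SE, limma adjusted p = 0.156) and 0.56 ± 0.12 with WT (limma adjusted p = 0.0484), and the WT call remained in 2 of the 10 fits without 1 array, those without WT replicate 1 or G183S replicate 1. The Rel call was also lost in 5 of 9 other alternatives, namely centred arrays, the replicate block, the 2 groups alone, no moderation and all probe sets, with limma adjusted p up to 0.143. Myb, a factor of B-cell precursors, read 9.53, 8.47, 7.60 and 8.28 in the G183S arrays and 9.84, 8.61 and 9.02 in the WT arrays, against 7.76, 8.21 and 7.75 with empty vector, and did not pass (0.56 with G183S, 1.25 with WT; limma adjusted p = 0.718 and 0.195). Aff3 lay under empty vector in every Pax5 array (-1.01 with G183S, -0.81 with WT; limma adjusted p = 0.0837 and 0.107). The early factors Tcf3 (E2A), Lef1 and Id3 did not pass in any comparison.

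Lists of target genes known from earlier work were drawn up for these factors other than Ets1. Of the 33 listed genes that were measured, 2 rose with G183S and 3 with WT, and none fell. Pou2af1, Bcl6 and Spib, themselves among the 10, are counted in the 33. Over all genes 0.100% were called higher with G183S and 0.883% with WT. These lists were chosen with earlier results of these data known, so the shares are no test of the targets as a group. Crisp3, a secreted cysteine-rich protein gene that depends on Oct-2 in mouse B cells, read 7.86, 6.59, 5.59 and 7.20 log2 units in the G183S arrays and 7.90, 7.89 and 7.77 in the WT arrays, against 5.56, 5.63 and 5.42 with empty vector. The 3 WT arrays lay together and above, while the G183S arrays spread from the empty-vector level in replicate 3 to the WT level in replicate 1. Crisp3 rose with WT (log2 difference 2.32 ± 0.44 SE, limma adjusted p = 0.0355), and with G183S the difference of 1.27 ± 0.41 did not pass (limma adjusted p = 0.230), nor did the difference between the proteins (-1.04 ± 0.41, limma adjusted p = 0.508). The WT call for Crisp3 remained in 2 of the 10 fits without 1 array, those without G183S replicate 1 or 3, and over the 10 fits limma adjusted p ran from 0.00589 to 0.136. The Crisp3 call with WT was also lost with the replicate block (limma adjusted p = 0.0520), without moderation (0.137) and over all probe sets (0.0626). Without G183S replicate 1 the difference between the proteins was -1.39 log2 units (limma adjusted p = 0.0380), without G183S replicate 3 it was -0.64 (0.681), and with array weights -1.12 (0.0266).

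Cd36, another known Oct-2 target, rose with both proteins, by a log2 difference of 5.63 with G183S (limma adjusted p = 0.00311) and 6.31 with WT (0.00324), and its lowest Pax5 array was again G183S replicate 3, at 8.86. Cxcr5, a chemokine receptor gene that depends on Pou2af1, read 5.13 to 5.54 log2 units over all arrays and did not pass (0.12 with G183S, -0.04 with WT). Fcgr2b, the inhibitory Fc receptor gene listed for Spib, rose by 1.89 with G183S and 1.91 with WT (limma adjusted p = 0.00117 and 0.00142), although Spib itself was not called. The adaptor gene Grap2, listed for Spib as well, lay under empty vector in every Pax5 array and did not pass (-0.86 with G183S, -1.24 with WT; limma adjusted p = 0.256 and 0.0812). The other measured genes of the Spib list, P2ry10 and Btk, had higher means with both proteins and were not called. Btk read 9.20 to 9.62 in the WT arrays against 8.86 to 9.02 with empty vector. P2ry10 read 6.08, 6.86 and 4.56 with WT, the last within the empty-vector range. All 4 measured genes of this list had an unadjusted limma p under 0.05 with WT, against 15.9% of all genes. With G183S 2 did, against 11.3%. With WT 3 of the 4 were higher and Grap2 was lower. The list was chosen with earlier results of these data known, so these counts are no test of Spib targets. Of 6 Ebf1 targets none passed: the receptor chain genes Cd79a and Cd79b differed by 0.19 and -0.25 log2 units with G183S and by 0.30 and -0.43 with WT, and the kinase gene Blk by 0.20 with G183S and 0.72 with WT (limma adjusted p = 0.889 and 0.271).

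**Figure D5:**
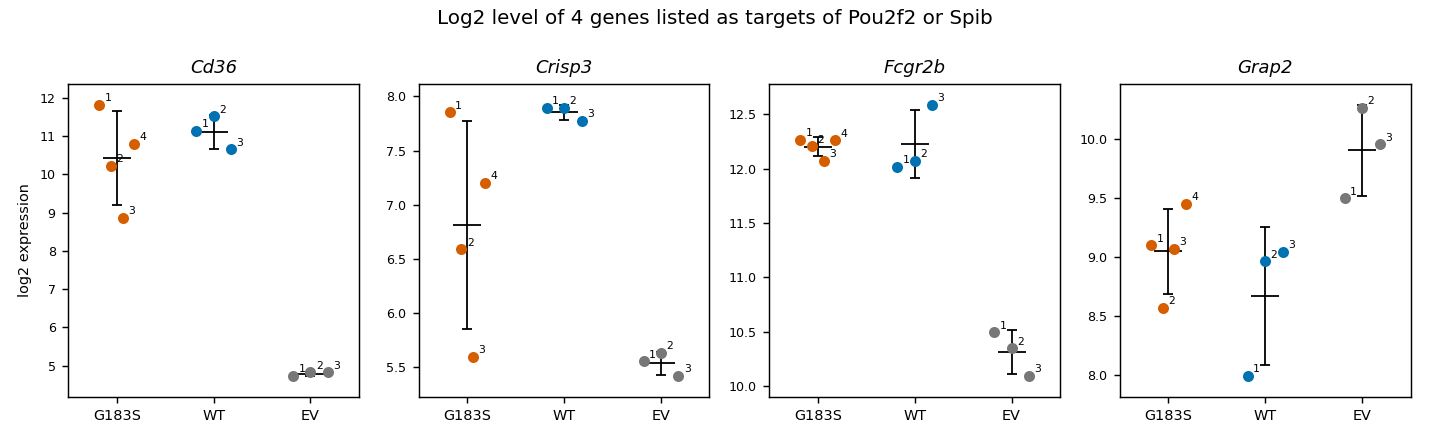
Log2 expression (y axis, each panel on its own range) of Cd36, Crisp3, Fcgr2b and Grap2 in the 4 G183S, 3 WT and 3 empty-vector (EV) arrays; points are arrays with their replicate number, and bars are the mean ± SD. Crisp3 spreads from 5.59 to 7.86 among the G183S arrays and lies at 7.77 to 7.90 in the WT arrays, while Fcgr2b is tight at 12.07 to 12.27 with G183S.

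The remaining lists of targets gave no calls. Of 8 listed Foxo1 targets, which do not include Sesn3, none passed, the precursor genes Rag1, Rag2 and Il7r reading at most 6.02 log2 units in any array. Of 7 genes repressed by Bcl6 none passed, although the co-stimulatory gene Cd80 lay above empty vector in every Pax5 array (2.14 with G183S, 1.60 with WT; limma adjusted p = 0.156 and 0.247), as did the cyclin gene Ccnd2 (0.32 and 0.46; 0.249 and 0.0736). Igll1 and Vpreb1, surrogate light chain genes that Ikzf3 restrains in B-cell precursors, differed by -0.06 and -0.09 with G183S and by -0.05 and 0.0022 with WT. Mdm2, an Irf8 target in germinal-centre B cells, differed by 0.18 with G183S and -0.44 with WT (limma adjusted p = 0.899 and 0.504).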

How the data were processed

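Total RNA (100 ng) of 10 cultures, 4 with Pax5 G183S, 3 with Pax5 WT and 3 with empty vector, went onto Affymetrix whole-transcript arrays, per the labels' protocols. The authors deposited log2 values per probe set. The submitters' processing notes list RMA and Partek, with no version or role. Since RMA equalises the arrays' distributions, a change common to most genes is hidden. Detection calls and scanner data were not used here.

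Of 34760 probe sets, 21640 had 1 gene symbol in the platform annotation. Of these 21553 matched the RefSeq table, and 0 symbols changed. Per gene the probe set with the highest mean was kept, which left 19937 genes; none of the 10 had a choice. limma 3.58.1 in R 4.3.3 was fitted with 1 coefficient per group over all 10 arrays, using moderated variances. P-values were two-sided and adjusted by Benjamini-Hochberg over all genes, with calls at under 0.05. They set each difference against the spread between these cultures within groups, as moderated over all genes. The fit was tested on simulated data. Alternatives were array centring, a filter on dim genes, a replicate block, array weights, the 2 groups alone, other variance and probe-set choices, and each array left out. Genes were named by rule: Pax5, the 10 genes, Irf4, Prdm1 and Xbp1, the called genes and up to 4 with the smallest adjusted p of each list and comparison, and the 3 most like a called gene. The markers Jchain, Sdc1, Igha, Tnfrsf17, Tnfrsf13b and Cd3g, and Spi1, Irf9, Tcf3, Lef1, Id3 and Rag1, were added after their values were seen. The rule did not set which of the genes it named were described, and some, such as Etv6, Zbtb7a and Hhex, are not. The 10 genes and all lists were chosen with earlier results of these data known.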

Additional observations from a re-analysis of the deposited data

Results flagged for a closer look

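Among 59 genes named by rule, each examined in the 4 G183S arrays, 4 had 1 array farther from the others than Dixon's 95% criterion allows; chance flags about 1 group in 20. G183S replicate 1 was the one apart for 3 of them. It was high for Ell2, an elongation factor of antibody-secreting cells, at 11.60 log2 units with the other G183S arrays at 11.13 to 11.17. It was low for the chemokine gene Ccl3, at 7.62 with the others at 9.40 to 9.68, and for Hmox1, at 9.84 with the others at 10.44 to 10.51. G183S replicate 3 was low for Irf7, at 8.03 with the others at 8.70 to 8.82. None of the 10 factors was among them.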

How the results depend on the processing

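Irf8 kept its direction against empty vector in the 10 fits without 1 array and the 9 other alternatives of each comparison. The number of the 10 genes called, 1 for each protein against empty vector, was 0 for G183S with the replicate block, 0 for both proteins without moderation and 3 for WT with array weights, and 0 to 1 for each protein without 1 array. Between G183S and WT it was 0, 3 with array weights and 0 to 0 without 1 array. Over all genes, calls with G183S numbered 62, against 10 with the replicate block, 1449 with array weights, 6 without moderation and 8 to 295 without 1 array. With WT they numbered 374 (176 higher, 198 lower), against 318 with centred arrays (100 higher, 218 lower), 228 with the replicate block, 2576 with array weights, 587 with the 2 groups alone, 4 without moderation, 189 over all probe sets and 6 to 1033 without 1 array. Between G183S and WT there were 0, against 2 with the replicate block, 2752 with array weights, 1 without moderation and 0 to 1113 without 1 array. The 1113 came without G183S replicate 1, and any other array left out gave at most 3. Deviations of same-numbered arrays from their group means correlated from -0.16 to 0.51 across genes, and those of other pairs from -0.58 to 0.29. The highest were those of WT and G183S replicate 1 (0.51) and of WT and G183S replicate 3 (0.46). Whether replicate numbers pair WT with G183S cultures was therefore not settled.

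No called log2 difference of the 10 genes changed sign, while some near 0 did. With array weights WT minus empty vector was 0.065 for Spib, -0.0055 for Ebf1 and 0.063 for Bcl6, Bcl6 was -0.024 for G183S minus empty vector and -0.087 for G183S minus WT, and Pou2f2 was 0.083 for G183S minus WT. With centred arrays G183S minus empty vector was -0.025 for Bcl6 and -0.026 for Ets1. Without 1 array, WT minus empty vector ran from -0.17 to 0.18 for Spib and from -0.073 to 0.043 for Bcl6, G183S minus empty vector from -0.15 to 0.10 for Bcl6 and from -0.078 to 0.081 for Ets1, and G183S minus WT from -0.017 to 0.039 for Ebf1, from -0.13 to 0.11 for Bcl6 and from -0.085 to 0.12 for Pou2f2. The cause was not tested. With dim genes left out, Ebf1 and Bcl6 gave no value. Signal near the array's low end limits what can be said of these 2 genes.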
